A study of Mus musculus with 7 samples.

Results

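The genes of DNA replication and S phase were examined in myogenic cells of mouse muscle. The set holds 41 genes, chosen by symbol from the 27998 genes counted, and each of the 41 was found in the count tables of all 7 libraries. Single-cell RNA was captured with a droplet 3′ kit, and a gene's value is its number of unique molecular identifiers (UMIs), each standing for 1 captured RNA molecule. The mice are of the strain that the labels give as C56BL/6J, with no transgene or mutant allele named. Total muscle (2 libraries) is made of live cells sorted from dissociated hindlimb muscle of animals aged 3 months. Homeostatic muscle stem cells (MuSCs, the satellite cells that lie on muscle fibres; 2 libraries) were sorted from muscle for which no injury is named. Injured MuSCs (2 libraries) were sorted 60 h after injection of notexin (2 µM), a toxin from snake venom that kills muscle fibres. Primary myoblasts (1 library, without a replicate) were satellite cells of mice aged 3 months kept in culture for 4 to 5 passages on collagen, in medium with 10% horse serum and bFGF at 2.5 ng/µl. The labels do not say whether libraries of 1 group came from different animals, so p-values measure the spread between libraries only, which may be technical.

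DNA replication starts when the origin recognition complex, Cdc6 and Cdt1 load the Mcm2 to Mcm7 ring onto DNA in G1. In S phase Cdc45 and the GINS complex turn the ring into the active CMG helicase, polymerase alpha with primase starts each strand, and polymerases delta and epsilon extend it on the PCNA clamp. Many of these genes are textbook targets of E2F transcription factors, which are held back by retinoblastoma proteins in resting cells. Satellite cells of uninjured adult muscle are mostly quiescent and enter the cell cycle after damage, and cultured myoblasts proliferate.

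Because E2F control is the textbook link between these genes, their promoters were searched for 3 E2F-like motifs, TTTCGCGC, TTTGGCGC and TTTCCCGC, on both strands. RefSeq windows of 300 bases (250 before the start site and 50 after, build GRCm38.p6) were found for 34 of the 41 genes. At least 1 of the motifs occurred in 13 of the 34 (38.2%), against 573 of all 27025 genes with a window (2.12%). Among 53 other replication genes with a window the share was 37.7%. CCAAT occurred in 67.6% of the 34 and 41.1% of all genes, and TTTGAA or TTCGAA in 20.6% and 21.7%. The stretches that follow were chosen after the matches were seen, from licensing genes and Uhrf1, and show only matches before the start site. Cdt1, Lig1, Mcm3 and Pold1 held matches only after it. In the stretches the matches are in capitals, and overlapping matches form 1 run.
Mcm5, chr8:75109346-75109377, plus strand: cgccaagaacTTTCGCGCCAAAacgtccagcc
Mcm6, chr1:128359735-128359825, minus strand: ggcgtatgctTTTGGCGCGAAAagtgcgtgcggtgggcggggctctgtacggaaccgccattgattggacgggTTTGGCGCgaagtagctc
Orc1, chr4:108579417-108579444, plus strand: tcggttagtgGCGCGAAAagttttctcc
Cdc6, chr11:98908003-98908030, plus strand: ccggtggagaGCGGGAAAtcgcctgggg
Uhrf1, chr17:56304118-56304145, plus strand: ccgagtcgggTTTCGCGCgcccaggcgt
In Mcm5 and Mcm6 a TTTCGCGC and a TTTGGCGC match on opposite strands overlap, and Mcm6 holds a further TTTGGCGC closer to its start. The stretches of Orc1, Cdc6 and Uhrf1 lie before the RefSeq start site but overlap the gene as GENCODE M21 bounds it. A match describes the letters of the window and is not a measured binding site.

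Myogenic-like cells numbered 4390 in primary myoblasts, 1502 and 1377 in the first and second homeostatic library, 1151 and 1877 in the injured ones and 91 and 128 in total muscle. They held from 323896 UMIs (total muscle 1) to 113253474 UMIs (primary myoblasts). The myogenic-like clusters kept injured and cultured cells apart from the other groups, but for 1 total muscle cell. They mixed homeostatic MuSCs with total muscle. Injured cells made up clusters 2, 4 and 18, homeostatic MuSCs and all but 1 of the total muscle cells fell in clusters 0, 6 and 10, and cultured cells in clusters 1, 3, 7, 15 and 16. The clusters of injured cells took their name from 5 or 6 raised markers, with Myf5, Myog, Des, Itga7 and Cdh15 in each, but clusters 2 and 4 had no myogenic marker among their top 10 genes, which were led by Rps12-ps3. A further cluster of 315 cells, 312 of them from the injured libraries, had 2 raised markers and a median of 1082 UMIs and was left unnamed. Myod1, a defining marker of activated myogenic cells, was at 1691 and 1746 CPM in homeostatic and 229 and 241 in injured MuSCs, and Pax7, the defining satellite cell marker, at 46.3 and 31.0 and at 7.08 and 10.2. The injured libraries stood apart in ways that cannot be told apart from injury. Rps12-ps3, a pseudogene, was at 1244 and 1355 CPM (counts per 1000000 UMIs of the library's myogenic-like cells) in them and at 0.316 or less in the other 5 libraries, and mt-Nd4l at 690 and 627 against 0. The count tables of the injured libraries list genes in descending order and the other 5 in ascending order, and whether all 7 were counted with the same reference and software version is not given in the sources used here. The 2 injured libraries share 253 cell barcodes, against 1 to 16 for the other pairs. Xist was at 679 to 958 CPM in injured MuSCs and total muscle and under 1 in the others, whereas Ddx3y, a Y-linked gene, was at 281 and 345 in homeostatic MuSCs, so sex also differed between the groups. Of the 41 genes, 17 share their last 300 bases in part with another gene, so that reads may be assigned in part to another locus. The other 24 have no such copy and are counted separately.

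The 41 genes together were higher in injured MuSCs than in homeostatic MuSCs and total muscle. Their summed level, in CPM, was 425 and 431 in the homeostatic libraries, 543 and 469 in total muscle, 1847 in primary myoblasts and 3129 and 2912 after injury. Both injured libraries were above all others, and the myoblast library lay between them and the homeostatic and total muscle libraries. The 24 genes without a copy summed to 153 and 152 CPM in homeostatic MuSCs, 1374 and 1251 in injured MuSCs and 1108 in primary myoblasts. In these sums more cells with the RNA and more RNA per cell cannot be told apart.

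**Figure D1:**
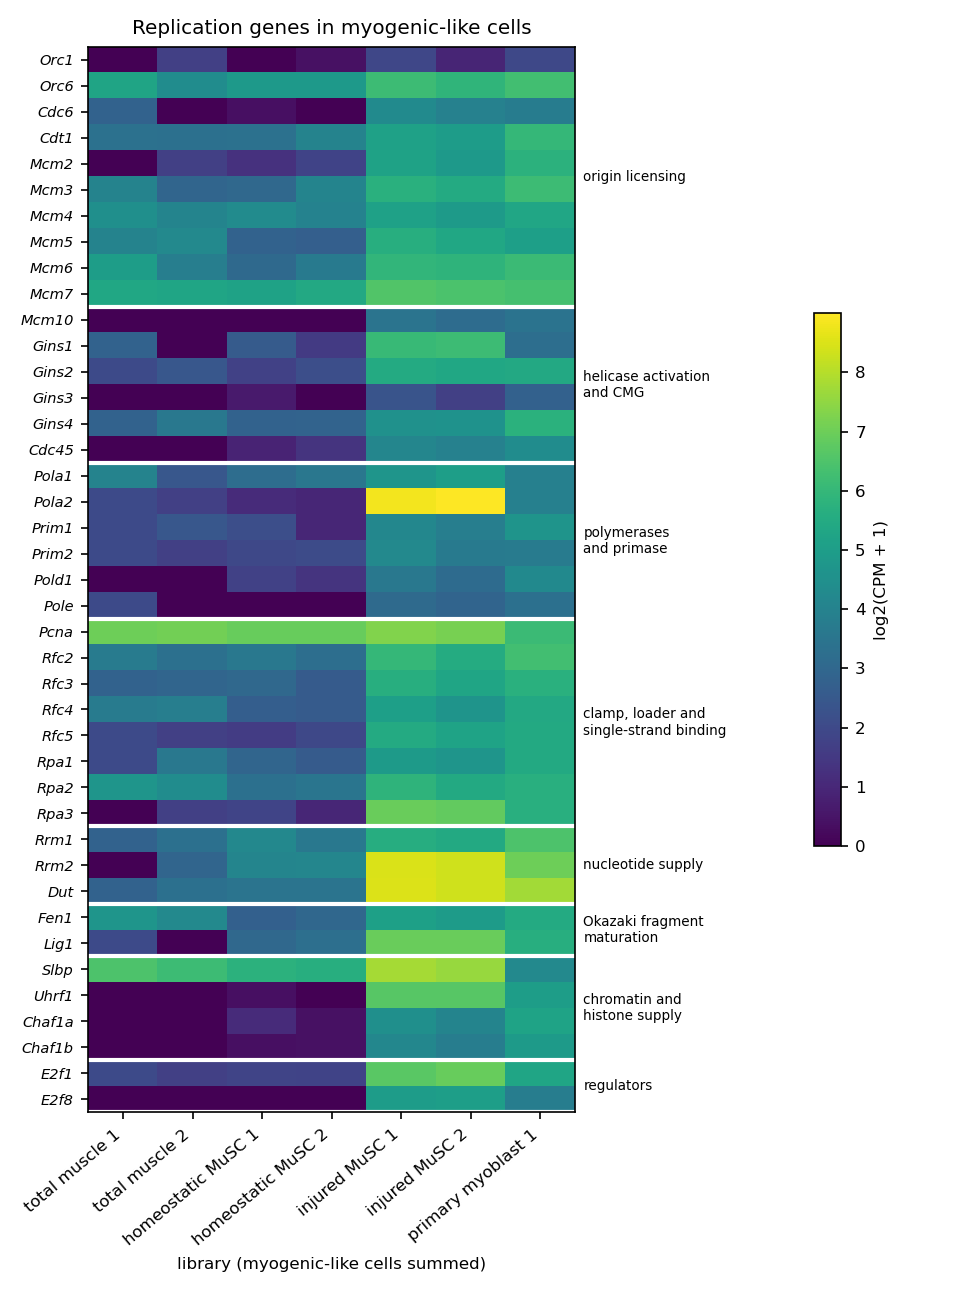
Level of each of the 41 genes (rows, grouped by role) in the summed myogenic-like cells of each library (columns), as log2(CPM + 1). The injured columns are brighter than the homeostatic ones in every row, Pcna is bright in all columns, and Slbp is darkest in primary myoblasts.

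The first comparison sets MuSCs sorted 60 h after notexin against homeostatic ones. Of the 41 genes 40 could be tested, and all 40 were higher in injured MuSCs at an adjusted p under 0.05 (edgeR's quasi-likelihood test, Benjamini-Hochberg over all genes), where 38.3% of the 10642 genes tested were higher. In each of the 41, both injured libraries exceeded both homeostatic ones, as in 38.4% of the genes tested. The median log2 fold change was 3.16, against 0.03 over all genes tested, and all 24 genes without a copy were higher, with a median of 3.35. With library totals in place of scaling factors, 39 of 40 were higher and the median of all genes moved to -0.27. Markers of other cell types moved in both directions between the groups. The 5 erythroid markers summed to 3806 and 923 CPM in homeostatic MuSC 1 and 2, with none at 0, and to 3.31 and 2.14 in injured MuSCs, with 2 of 5 at 0 in each. The 10 fibro-adipogenic markers summed to 291 and 294 and to 22.9 and 31.4 CPM, whereas the 10 myofibre markers summed to 29.5 and 43.0 and to 153 and 273 CPM; their part in the result was not tested. Without the haemoglobin-rich cluster 6, a setting chosen after seeing the data, 40 of 40 were still higher.

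Among the licensing genes, 9 of 10 were tested and all 9 rose, by log2 1.19 (Mcm4) to 6.86 (Cdc6). Mcm7, the subunit of the ring with the most UMIs, was at 40.1 and 37.8 CPM in total muscle, 35.6 and 42.3 in homeostatic MuSCs, 92.8 and 86.0 in injured MuSCs and 79.7 in primary myoblasts. Its rise after injury was 1.498 ± 0.16 on the log2 scale (SE, adjusted p = 1.87e-06 by edgeR). Mcm6, another subunit, was at 30.9 and 13.3 CPM in total muscle, 7.53 and 11.7 in homeostatic MuSCs, 60.1 and 56.4 in injured MuSCs and 68.9 in primary myoblasts, and rose by log2 2.90 ± 0.22 (adjusted p = 6.47e-08 by edgeR). The summed UMIs of Mcm2 to Mcm7 were 77.1 and 92.6 CPM in homeostatic MuSCs and 323 and 284 in injured MuSCs. The 6 subunits form a ring in equal number as proteins, whereas UMIs count RNA. Among the 6, the highest level was 24.6 and 16.8 times the lowest in homeostatic MuSC 1 and 2. It was 2.72 and 3.08 times the lowest in injured MuSC 1 and 2. The homeostatic ratios rest on few UMIs, since the lowest was Mcm2, at 1.45 and 2.53 CPM. Mcm2, Mcm5 and Mcm7 are among the genes with copies.

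Orc6, the smallest subunit of the origin recognition complex, was at 37.0 and 20.02 CPM in total muscle, 28.1 and 28.4 in homeostatic MuSCs, 71.2 and 58.1 in injured MuSCs and 76.0 in primary myoblasts. Orc1, the subunit that is cyclic in many cells, was rare throughout and was not tested after injury: its levels were 0 and 2.22 CPM in total muscle, 0 and 0.316 in homeostatic MuSCs, 2.74 and 0.915 in injured MuSCs and 2.88 in primary myoblasts. Orc1 had 1 UMI in homeostatic and 30 in injured MuSCs, a ratio of 12.97 (95% interval 2.16 to 529, counting error only). Cdc6, the loading factor, had 1 and 259 UMIs, a ratio of 112 (19.9 to 4438). Both genes carry a motif in the stretches printed for them. Cdt1, the partner of Cdc6 in loading, was at 9.27 and 15.2 CPM in homeostatic MuSCs, 34.7 and 30.7 in injured MuSCs and 62.4 in primary myoblasts. The ring subunit with the largest rise was Mcm2, from 1.45 and 2.53 CPM in homeostatic to 35.4 and 27.9 in injured MuSCs, whereas Mcm4 rose from 19.1 and 14.9 to 34.2 and 29.0 CPM.

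The genes of helicase activation were scarce in homeostatic MuSCs and total muscle, and all 6 rose after injury. Mcm10, which helps to start the helicase, had no UMI in total muscle or homeostatic MuSCs, 9.94 and 8.08 CPM in injured MuSCs and 9.70 in primary myoblasts. It was at least 20.2-fold higher in injured and at least 21.4-fold higher in primary myoblasts than in homeostatic MuSCs, against a floor of 3 UMIs over the homeostatic group. The GINS subunits did not move together in culture. Gins1 was at 6.17 and 0 CPM in total muscle, 4.92 and 1.90 in homeostatic MuSCs, 65.5 and 70.8 in injured MuSCs and 8.59 in primary myoblasts. Gins2 was at 3.09 and 4.45 CPM in total muscle, 2.32 and 3.48 in homeostatic MuSCs, 44.7 and 40.1 in injured MuSCs and 42.3 in primary myoblasts. Gins4 was at 6.17 and 11.1 CPM in total muscle, 6.08 and 6.32 in homeostatic MuSCs, 22.3 and 23.0 in injured MuSCs and 52.8 in primary myoblasts. In the myoblast library Gins1 was above its homeostatic level (log2 0.93 ± 0.35, adjusted p = 0.0239 by edgeR) and far below its injured level, Gins2 lay between its injured values in CPM, and Gins4 was above both. The difference of Gins1 from homeostatic MuSCs did not pass with DESeq2 (log2 0.77), RLE scaling (0.77) or GC-rich barcodes (0.90). It was log2 0.40 without homeostatic MuSC 2. Against injured MuSCs, Gins2 differed in primary myoblasts by log2 -0.70 ± 0.20 with scaling factors and by -0.0062 with library totals. Gins3 differed by log2 0.18 ± 0.37 with scaling factors. Cdc45, the CMG subunit that joins with GINS, was at 0.869 and 1.58 CPM in homeostatic MuSCs, 16.3 and 14.5 in injured MuSCs and 19.7 in primary myoblasts.

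All 6 genes of polymerases and primase rose after injury. Pola2, the regulatory subunit of polymerase alpha, was at 3.09 and 2.22 CPM in total muscle, 1.16 and 0.948 in homeostatic MuSCs, 461 and 511 in injured MuSCs and 14.1 in primary myoblasts. The last 300 bases of its transcripts match parts of 320 other genes, so its level in the injured libraries is uncertain. The catalytic subunit Pola1, which has 88 such matches, was at 15.4 and 4.45 CPM in total muscle, 8.40 and 10.7 in homeostatic MuSCs, 24.7 and 32.0 in injured MuSCs and 14.2 in primary myoblasts. Prim1, the catalytic primase subunit without a copy, was at 3.09 and 4.45 CPM in total muscle, 3.48 and 0.948 in homeostatic MuSCs, 16.9 and 13.6 in injured MuSCs and 23.9 in primary myoblasts, with a rise after injury of log2 3.04 ± 0.38 (adjusted p = 9.55e-06 by edgeR). Pole, the catalytic subunit of polymerase epsilon, had 3.09 and 0 CPM in total muscle, no UMI in homeostatic MuSCs, 7.66 and 6.41 CPM in injured MuSCs and 8.92 in primary myoblasts, which is at least 15.7-fold higher in injured than in homeostatic MuSCs.

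Pcna, the sliding clamp, differed least after injury among the 40 genes tested. It was at 130 and 136 CPM in total muscle, 118 and 120 in homeostatic MuSCs, 157 and 141 in injured MuSCs and 69.6 in primary myoblasts. Its rise after injury was log2 0.62 ± 0.14 (adjusted p = 0.00135 by edgeR), and it no longer passed with library totals only (0.32, adjusted p = 0.0566). After thinning each cell to 1000 UMIs, 11.3% and 11.9% of homeostatic and 12.9% and 13.3% of injured myogenic-like cells held a Pcna UMI. Pcna has a near-identical pseudogene, Pcna-ps2. All 7 genes of the clamp loader and of RPA, the single-strand binding complex, rose by log2 2.48 (Rpa1) to 6.30 (Rpa3). Rpa3, the smallest RPA subunit, was at 0 and 2.22 CPM in total muscle, 2.61 and 0.948 in homeostatic MuSCs, 123 and 114 in injured MuSCs and 49.6 in primary myoblasts. Rfc2, a clamp loader subunit, was at 12.3 and 8.90 CPM in total muscle, 11.3 and 8.53 in homeostatic MuSCs, 62.4 and 45.4 in injured MuSCs and 76.5 in primary myoblasts.

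Nucleotide supply held large changes. Rrm2, the regulated subunit of ribonucleotide reductase, was at 0 and 6.67 CPM in total muscle, 16.2 and 16.4 in homeostatic MuSCs, 356 and 325 in injured MuSCs and 127 in primary myoblasts, and rose after injury by log2 4.68 ± 0.17 (adjusted p = 1.40e-10 by edgeR). Dut, which breaks down dUTP and has no copy, was at 6.17 and 8.90 CPM in total muscle, 10.1 and 10.1 in homeostatic MuSCs, 371 and 323 in injured MuSCs and 216 in primary myoblasts, with a rise of log2 5.39 ± 0.19 (adjusted p = 9.99e-11 by edgeR). The large subunit Rrm1 changed less, from 17.4 and 11.1 CPM in homeostatic MuSCs to 48.1 and 42.9 in injured MuSCs, with 6.17 and 8.90 in total muscle and 89.3 in primary myoblasts. Of the genes that join Okazaki fragments, the ligase Lig1 was at 3.09 and 0 CPM in total muscle, 7.24 and 8.85 in homeostatic MuSCs, 123 and 123 in injured MuSCs and 49.5 in primary myoblasts. The flap nuclease Fen1 was at 24.7 and 17.8 CPM in total muscle, 5.79 and 6.95 in homeostatic MuSCs, 33.8 and 29.6 in injured MuSCs and 44.0 in primary myoblasts.

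Among the genes of chromatin and histone supply all 4 rose. Uhrf1, which guides maintenance DNA methylation, had no UMI in total muscle and was at 0.290 and 0 CPM in homeostatic MuSCs, 100 and 99.7 in injured MuSCs and 31.5 in primary myoblasts. With 1 UMI in homeostatic and 1529 in injured MuSCs its ratio was 661 (118 to 26119). Slbp, which binds the stem-loop of histone messages, was at 89.5 and 71.2 CPM in total muscle, 53.9 and 49.3 in homeostatic MuSCs, 220 and 194 in injured MuSCs and 17.8 in primary myoblasts. Chaf1a, the large subunit of the chromatin assembly factor, had no UMI in total muscle and was at 1.16 and 0.316 CPM in homeostatic MuSCs, 21.6 and 15.9 in injured MuSCs and 36.1 in primary myoblasts. The 2 regulators also rose. E2f1, an activator of S phase genes, was at 3.09 and 2.22 CPM in total muscle, 2.61 and 2.53 in homeostatic MuSCs, 102 and 118 in injured MuSCs and 38.2 in primary myoblasts. E2f8, a repressor of the same family, had no UMI in total muscle or homeostatic MuSCs, 30.7 and 31.9 CPM in injured MuSCs and 12.95 in primary myoblasts, at least 68.9-fold higher in injured than in homeostatic MuSCs.

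**Figure D2:**
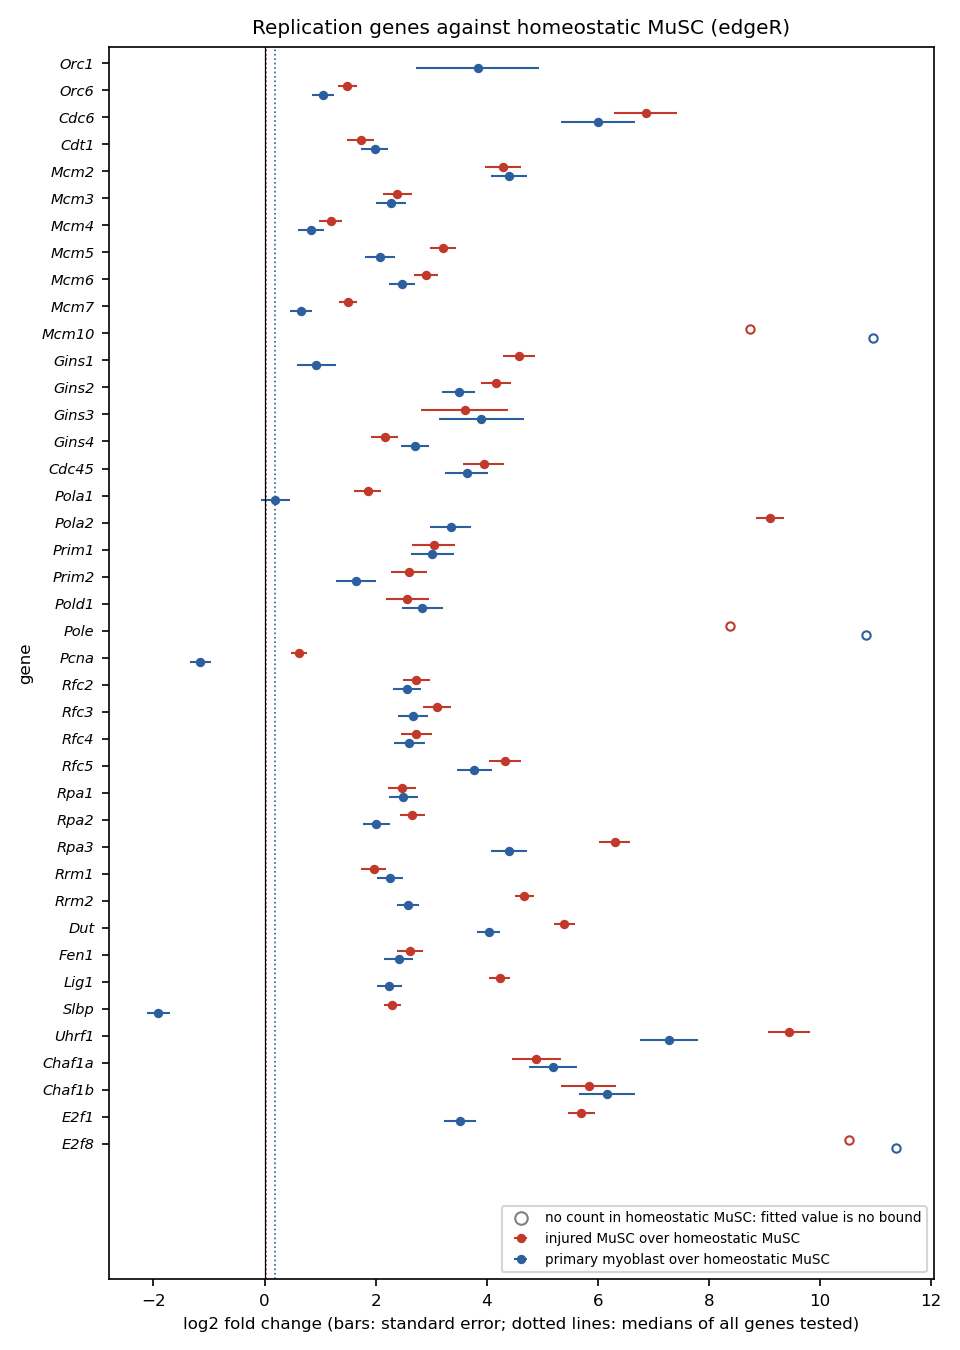
Log2 fold change of each gene in injured MuSCs (red) and primary myoblasts (blue) over homeostatic MuSCs, with standard errors from edgeR; both share the homeostatic libraries, open circles are fitted against 0 counts and are no bounds, and dotted lines mark the medians of all genes. All red points lie above 0, and Pcna and Slbp are the 2 blue points below 0 that passed the test.

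Of 69 other genes of replication and of the G1 to S transition, 68 were tested after injury. Of these 56 rose, 2 fell and 10 did not pass, with a median log2 fold change of 2.57. Dtymk, a thymidylate kinase, was at 41.7 and 33.2 CPM in homeostatic and 337 and 338 in injured MuSCs. Supt16, a subunit of the histone chaperone FACT, was at 92.7 and 143 CPM in homeostatic and 436 and 589 in injured MuSCs. Pole4, a small subunit of polymerase epsilon, was at 133 and 149 CPM in homeostatic and 144 and 141 in injured MuSCs and did not pass (log2 0.31 ± 0.14, adjusted p = 0.0551 by edgeR). The 2 that fell were Pold4, the smallest subunit of polymerase delta, from 99.1 and 92.0 to 24.5 and 25.2 CPM (log2 -1.65 ± 0.16, adjusted p = 5.94e-07 by edgeR), and E2f5, an E2F that acts with retinoblastoma relatives in resting cells, from 27.5 and 30.7 to 4.34 and 5.64 CPM (log2 -2.26 ± 0.23, adjusted p = 1.39e-06).

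Uninjured cells were compared next, homeostatic MuSCs against the myogenic-like cells of total muscle. Few UMIs were available in total muscle, and 21 of the 41 genes could be tested. None was higher, against 4.94% of the 8030 genes tested, and Fen1 was lower, against 4.55%. The other 20 did not pass at this depth. At an unadjusted p under 0.05 by edgeR 2 were higher (Rrm2 and Lig1) and 6 lower, and DESeq2 called 0 higher and 0 lower. The median log2 fold change was -0.15, against 0.03 over all genes tested. When 1 library was left out it ranged from -0.03 (25 genes, without total muscle 1) to -0.76 (7 genes, without homeostatic MuSC 1). Without cluster 6 it was -0.62 (22 genes). These medians cover different genes, since the genes tested changed with the setting. Fen1 fell by log2 1.78 ± 0.50 (edgeR, adjusted p = 0.0233), and its call was lost with DESeq2 (log2 -1.82, adjusted p = 0.0972), without each of the 4 libraries in turn (log2 -1.55 to -2.02, adjusted p from 0.136 to 0.447) and without cluster 6 (log2 -1.48, adjusted p = 0.487), with larger standard errors (0.67 to 1.14) and a difference in the same direction. Cluster 6 holds 154 of the 219 myogenic-like cells of total muscle and 655 of the 2879 of homeostatic MuSCs. Of the 69 other genes, Pold4 (398 and 407 CPM in total muscle, log2 -2.16 ± 0.17, adjusted p = 1.07e-09 by edgeR) and Pole3 (log2 -1.10 ± 0.34, adjusted p = 0.0379) were lower in homeostatic MuSCs, 37 did not pass and 30 were not tested. The 10 fibro-adipogenic markers summed to 593 and 612 CPM in the myogenic-like cells of total muscle and to 291 and 294 in those of homeostatic MuSCs. The 10 myofibre markers summed to 333 and 354 against 29.5 and 43.0 CPM and the 8 endothelial markers to 95.7 and 523 against 22.3 and 27.2, whereas the 5 erythroid markers were higher in homeostatic MuSCs (98.8 and 80.1 CPM in total muscle against 3806 and 923). The part of these markers in the differences was not tested.

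Primary myoblasts were set against both MuSC groups, in a fit where the spread of the MuSC libraries stands in for that of the lone myoblast library. Against homeostatic MuSCs, 38 of the 41 genes were higher, where 39.5% of 12439 genes tested were, 2 were lower, where 32.3% were, and Pola1 did not pass (log2 0.20 ± 0.27, adjusted p = 0.523 by edgeR). All 24 genes without a copy were higher in this fit, but the call of Gins1 was lost with DESeq2, RLE scaling and GC-rich barcodes. The 10 myofibre markers summed to 3034 CPM in primary myoblasts and the 5 erythroid markers to 0.0088, with 4 of the 5 at 0, against the sums given above for the MuSC groups, and their part in the result was not tested. The 2 lower genes were Pcna (log2 -1.16 ± 0.19, adjusted p = 2.29e-05) and Slbp (log2 -1.92 ± 0.21, adjusted p = 1.32e-07 by edgeR), both with near-identical copies and both lower under each scaling tried. The median log2 fold change was 2.67, against 0.18 over all genes. This comparison shares the homeostatic libraries with that of injury. Of the 69 other genes, 54 were higher, 11 did not pass and 4 were lower: E2f5, Pold4, Pole4 and Mcmbp, which binds Mcm subunits and was at 67.5 and 86.6 CPM in homeostatic MuSCs and 34.7 in primary myoblasts.

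Against injured MuSCs the levels of primary myoblasts were lower for 20 of the 41 genes, where 25.5% of 12439 genes were lower, higher for Gins4, where 34.2% were higher, and did not pass for 20. Among the 24 genes without a copy 9 were lower and 1 was higher. These counts depend on scaling: with library totals only, 14 were higher and 13 lower, and over all genes 7344 were higher and 1701 lower in place of 4258 and 3177, since the all-gene median was then 0.90 rather than 0.20. By DESeq2 none of the 41 was higher and 19 were lower, and over all genes 1847 were higher and 2831 lower. The same 13 genes were lower with TMM, RLE, library totals and DESeq2: Mcm5, Gins1, Pola1, Pola2, Pcna, Rpa3, Rrm2, Dut, Lig1, Slbp, Uhrf1, E2f1 and E2f8. The number of all genes lower under all 4 is not given here. It cannot exceed the 1701 of 12439 genes that were lower with library totals. Of the 13, those without a copy are Gins1 (log2 -3.68 ± 0.25, adjusted p = 4.97e-10 by edgeR), Rpa3 (-1.95 ± 0.21), Dut (-1.38 ± 0.19), Lig1 (-2.01 ± 0.19), E2f1 (-2.22 ± 0.20) and E2f8 (-1.97 ± 0.22). Slbp differed by log2 -4.24 ± 0.22 (adjusted p = 1.16e-11 by edgeR). Gins4 (log2 0.52 ± 0.20, adjusted p = 0.0277 by edgeR) was not called by DESeq2 (adjusted p = 0.389), with RLE scaling (0.113) or without either injured library (log2 0.52 and 0.54, adjusted p = 0.145 and 0.124), where the difference was as large and its standard error larger (0.30 in both). Among the 69 other genes, 36 were lower, 5 higher and 28 did not pass.

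**Figure D3:**
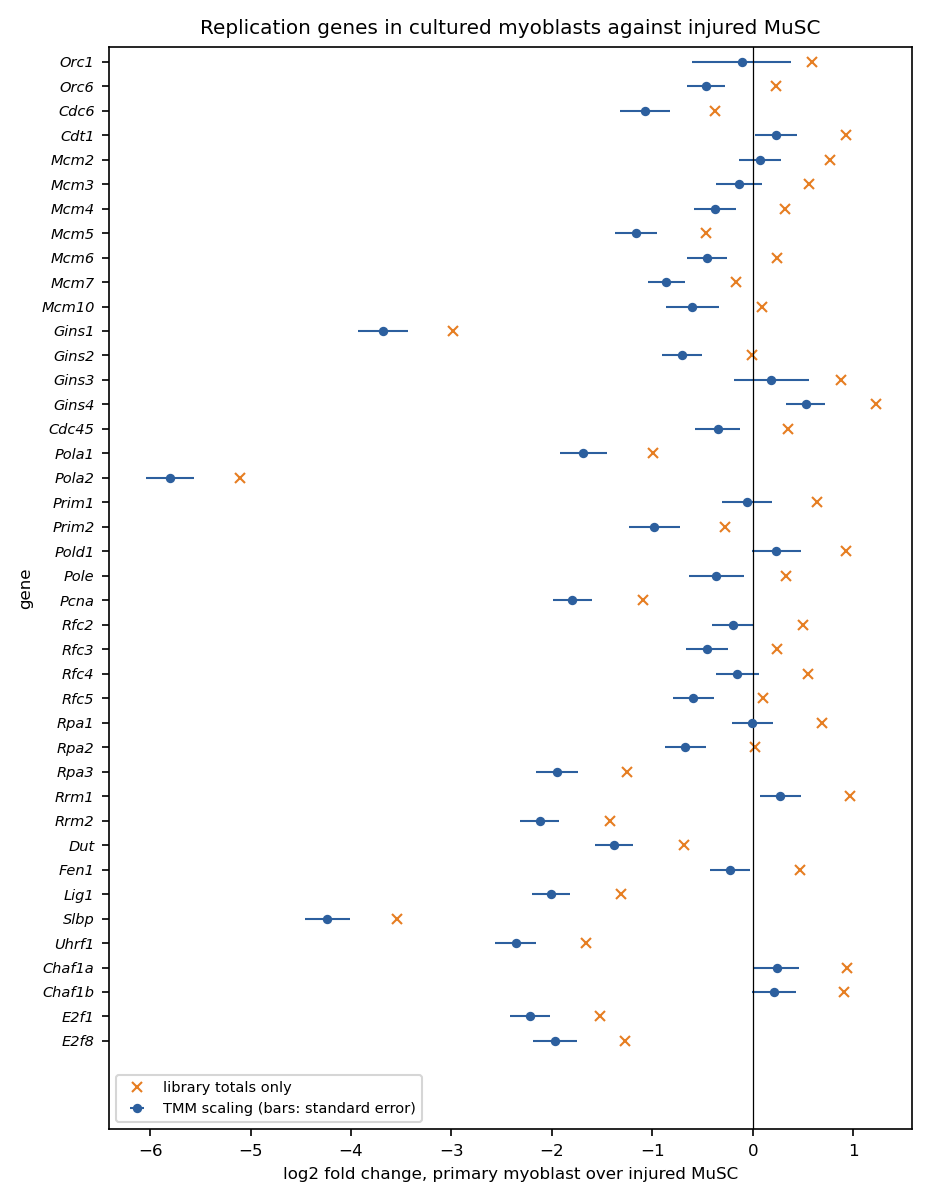
Log2 fold change of each gene in primary myoblasts over injured MuSCs, with TMM scaling (blue, bars are standard errors) and with library totals only (orange). Without scaling each point moves to the right, and Gins1 (-2.98), Slbp (-3.54) and Pola2 (-5.11) still lie far below 0.

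The share of cells that hold these RNAs was counted after thinning each cell to 1000 UMIs, which leaves out 300 and 369 myogenic-like cells of the homeostatic libraries and 10 of the second injured one. At least 3 of the 41 genes were seen in 1 of 91 and 1 of 128 cells of total muscle, in 0.915% (95% exact interval 0.458 to 1.63) and 0.794% (0.343 to 1.56) of homeostatic MuSCs, in 49.7% (46.8 to 52.6) and 46.0% (43.7 to 48.3) of injured MuSCs and in 24.8% (23.6 to 26.1) of primary myoblasts. Over the 24 genes without a copy the share with at least 3 was 0% in total muscle, 0% and 0.198% in homeostatic MuSCs, 12.3% and 11.4% in injured MuSCs and 11.7% in primary myoblasts. Injured MuSCs were thus above homeostatic ones on both counts. At this depth, their higher share than that of primary myoblasts was not seen without the genes that have copies. Thinned to 2000 UMIs, the share over the 24 genes was 40.1% and 38.2% in injured MuSCs and 30.3% in primary myoblasts. Without thinning the shares with at least 3 of the 41 genes were 6.72% and 6.83% in homeostatic MuSCs, 98.9% and 92.5% in injured MuSCs and 99.1% in primary myoblasts. At least 1 gene was seen in 35.4% and 33.3% of homeostatic, 94.0% and 92.0% of injured cells and 68.5% of primary myoblasts. In the cells of other named clusters of the homeostatic libraries that share was 41.2% of 51 and 32.3% of 31 cells, with median depths of 2739 and 3052 UMIs, against 2578 and 2842 in homeostatic MuSCs. No expression is read from these single UMIs, and the share that free RNA alone would give was not measured. In other named clusters of the injured libraries it was 40.5% of 37 and 54.2% of 48 cells (median depths 2842 and 1678.5 UMIs, against 7452 and 3289 in the myogenic-like cells). Barcodes that another library also holds left the injured shares with at least 3 genes at 51.4% and 45.7% when removed. Intervals cover counting error only.

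**Figure D4:**
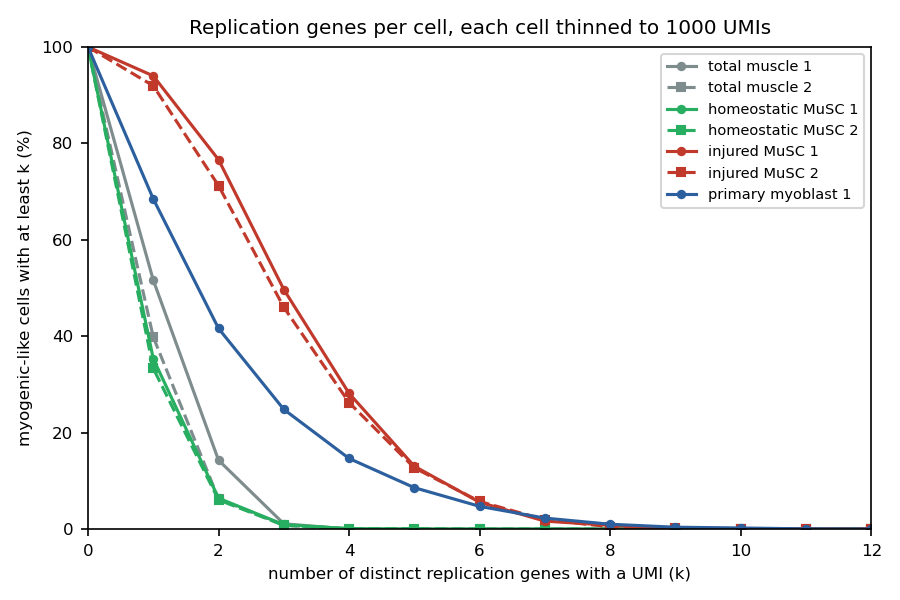
Percent of myogenic-like cells with at least k of the 41 genes, each cell thinned to 1000 UMIs, by library. At 3 genes the injured libraries are at 49.7% and 46.0%, primary myoblasts at 24.8% and homeostatic MuSCs at 0.915% and 0.794%. With the 24 genes without a copy alone, not drawn here, the shares were 12.3% and 11.4% in injured MuSCs and 11.7% in primary myoblasts. Thinned to 2000 UMIs, also not drawn, these shares were 40.1% and 38.2% in injured MuSCs and 30.3% in primary myoblasts.

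Replication genes were then read beside a list of G2 and M phase genes within single libraries, as a description of the cells. In primary myoblasts thinned to 10000 UMIs (4237 cells of 1 library, 153 left out) the Spearman correlation of the 2 sums across cells was 0.59. Sorted by their G2 and M phase UMIs, the 5 equal parts of the myoblasts held 883, 996, 1266, 2808 and 3086 CPM of the 41 genes. The step between the third and the fourth part was the largest. Genes differed in this course. The part with the highest level was the fourth for 16 genes and the fifth for 25. Cdc6 was at 2.59 CPM in the first, 37.7 in the fourth and 12.9 in the fifth part, and Mcm5 at 12.1, 60.1 and 47.9. Rrm2 went from 20.05 to 235 and 289 CPM, and Prim1, the primase, from 4.36 to 36.1 and 63.7. Cdt1, the licensing factor that is degraded as protein in S phase, varied least, with 53.3, 81.7 and 60.1 CPM.

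**Figure D5:**
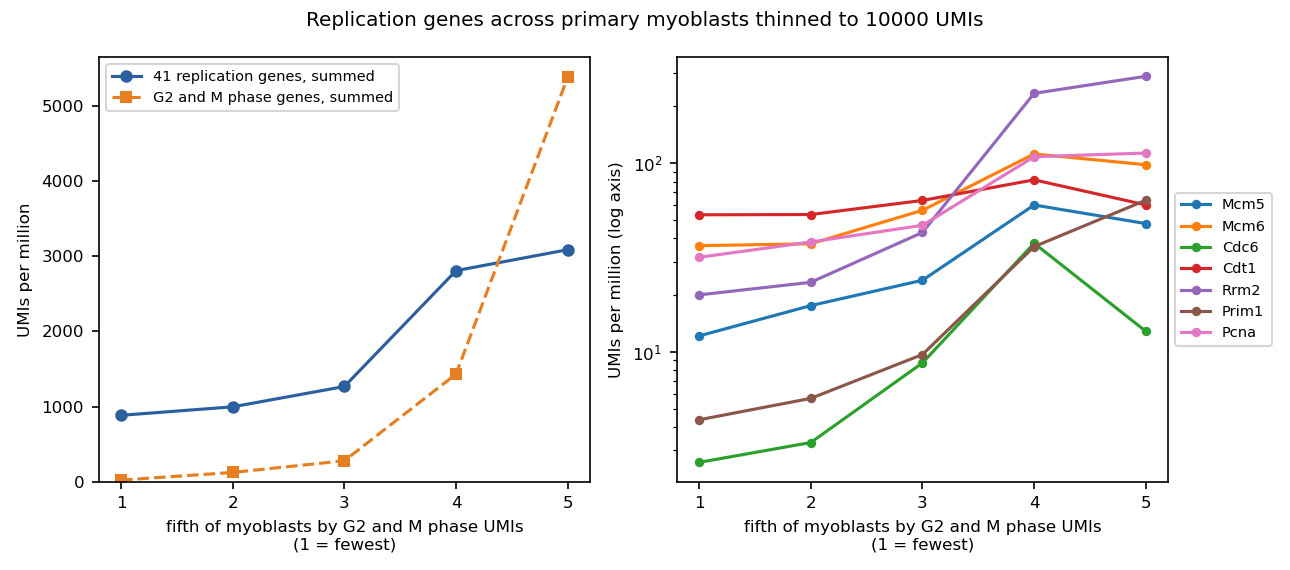
Left, summed level of the 41 genes and of the G2 and M phase list in 5 equal parts of the primary myoblasts ordered by G2 and M phase UMIs; right, 7 single genes on a log axis. Cdc6 peaks at 37.7 CPM in the fourth part, whereas Rrm2 and Prim1 are highest in the fifth.

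In injured MuSCs the sum did not follow the G2 and M phase list in this way. Thinned to 2000 UMIs, the correlation of the 2 sums across cells was -0.10 (1146 cells) and 0.03 (1750 cells) in injured MuSC 1 and 2, against 0.46 in primary myoblasts at the same depth (4390 cells). Single genes also hardly followed the sum of the other genes of the set in injured MuSCs. The highest such correlation was 0.135 (E2f1) in injured MuSC 1 and 0.149 (Uhrf1) in injured MuSC 2, against 0.379 (Rrm2) in primary myoblasts. Low correlations at this depth were thus not confined to the G2 and M phase list, and no uncoupling is read from them. The 41 genes summed to 3257 and 2657 CPM in the cells of injured MuSC 1 and 2 without a G2 and M phase UMI and to 2696 and 2867 CPM in the cells with the most, ratios of 0.828 (0.759 to 0.903) and 1.08 (1.01 to 1.15, 95% intervals for counting error only). Thinned to 1000 UMIs the first ratio was 1.01. Single genes differed: 16 of the 41 were higher in the cells with the most than in those without in injured MuSC 1, 25 in injured MuSC 2 and 40, all but Orc1, in primary myoblasts. The same counts over all genes are not given here, so these counts do not set the 41 apart from other genes. In injured MuSC 2 Rrm2 was at 198, 328 and 337 CPM in cells with no, some and the most G2 and M phase UMIs, Rrm1 at 23.2, 39.5 and 51.5 and Fen1 at 8.93, 31.0 and 33.7. In injured MuSC 1 Rrm1 was at 44.8, 46.3 and 57.1 CPM, whereas Rrm2 was highest in the middle cells (375 CPM) and Fen1 in those without (41.04 CPM). These 3 genes were chosen after their values were seen, and some values rest on few UMIs. In cells without a G2 and M phase UMI, Fen1 had 11 and 5 UMIs and Rrm1 12 and 13 in injured MuSC 1 and 2. For these 2 genes no difference in course between the 2 libraries is read from such counts. In primary myoblasts the 2 values were 1080 and 3035 CPM, a ratio of 2.81 (2.70 to 2.92). With cells that hold a Myog UMI (myogenin, the factor of differentiating muscle cells) set against those without, the sums were 2765 and 3167 CPM in the first injured library, 2446 and 3012 in the second and 1336 and 1915 in primary myoblasts. Cells with Myog were lower in each of the 3 libraries at this depth, with ratios of 0.873, 0.812 and 0.698. Thinned to 1000 UMIs the ratio in injured MuSC 1 was 0.984.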

How the data were processed

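The authors deposited unnormalized UMI counts, which are integers per the file headers. Cell Ranger 2.2.0, Seurat 2.3.4, bcl2fastq 2.17.1 and the mm10 build appear in the submitters' processing notes without their roles. Cells with at least 200 genes and at most 10% mitochondrial UMIs were kept. Scrublet, run per library, called 57 doublets in all, under 0.5% of cells, so it is not taken to have worked; leaving out the highest scores instead was an alternative. Clusters (2000 variable genes, 30 principal components, 20 neighbours, Leiden resolution 1; scanpy 1.11.5, leidenalg 0.10.2) were named by marker lists with at least 3 raised markers. For each library the myogenic-like cells were added up, and the sums tested with edgeR 4.0.16 (R 4.3.3; quasi-likelihood, TMM, filterByExpr, adjusted p under 0.05 over all genes). The script was tested on simulated data. Standard errors were derived from the F statistic and the log2 fold change. Depth was 3319283 to 114382567 UMIs per library, and the sparse total muscle sums limit precision. Folds against 0 counts are bounds at 3 counts over the group. Copies are matches of 90 bases or more at 95% identity to the last 300 bases (blastn 2.17.0, GENCODE M21, which may not be the annotation used for counting). Full values are given for the 3 genes of a role group with the highest mean CPM (all genes of smaller groups), genes against the majority, and genes absent from homeostatic MuSCs. The members, lists and comparisons were chosen with earlier results of these data known. Alternatives were DESeq2 1.42.0, other scaling, filters, cell sets and left-out libraries.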

Additional observations from a re-analysis of the deposited data

How the results depend on the processing

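After injury all tested genes of the set were higher under every alternative except library totals only (39 of 40) and without homeostatic MuSC 1 (40 of 41). Primary myoblasts against homeostatic MuSCs gave 34 to 38 higher and 2 lower. Replicate numbers did not pair the samples (correlations of deviations -0.03 and 0.07). With a replicate block 40 genes were higher after injury (4073 higher and 3908 lower over all genes), and for homeostatic MuSCs against total muscle 0 were higher and 1 lower (501 and 440 over all genes). In that last comparison all cells in place of myogenic-like cells gave 2 higher and 20 lower of 34 tested (3554 and 4304 of 12264 over all genes), and the fit of 7 libraries 1 higher. With GC-rich barcodes 0 of 5 genes tested were lower, and thinned to 1000 UMIs 0 of 10. Without cluster 6 (chosen after seeing the data) it was 0 of 22. By DESeq2 it was 0 of 21, of which 4 had no adjusted p. Leaving out a total muscle library left 25 genes tested, and leaving out a homeostatic one left 7. A count of 0 can thus reflect genes no longer tested. Primary myoblasts against injured MuSCs gave 0 higher with DESeq2 and RLE, 14 higher and 13 lower with library totals, and 0 to 1 higher and 15 to 23 lower when leaving out 1 library. Over all genes, library totals gave 5925 higher and 3170 lower in primary myoblasts against homeostatic MuSCs, in place of 4909 and 4021, with a median of 0.56. Values that changed sign in primary myoblasts against injured MuSCs, on the log2 scale, were, with library totals, Orc6 0.23, Mcm6 0.24, Prim1 0.64, Rfc2 0.50, Fen1 0.47, Orc1 0.58, Mcm10 0.10 and Pole 0.33. They were also Orc1 0.0034 without shared barcodes, Prim1 0.12 and Pole 0.0014 with GC-rich barcodes, Pole 0.0727 when thinned, and Prim1 0.12 and Orc1 0.057 without a filter. Without injured MuSC 1 and without injured MuSC 2 the values were 0.1434 and -0.1985 for Prim1, 0.0759 and -0.406 for Rfc2 and 0.9758 and -0.6298 for Orc1. The cause was not tested. The share of cells with at least 3 genes moved with depth: without thinning it was 26.4%, 19.5%, 6.72%, 6.83%, 98.9%, 92.5% and 99.1% in the 2 libraries each of total muscle, homeostatic and injured MuSCs and in primary myoblasts. Thinned to 2000 UMIs it was 5.83% in total muscle 2, 4.05% and 4.57% in homeostatic MuSCs, 88.2% and 81.8% in injured MuSCs and 47.7% in primary myoblasts. With GC-rich barcodes it was 0% in total muscle 2, 0.440% in homeostatic MuSC 1 and 48.8% in injured MuSC 2. Thinned to 1000 UMIs, the ratio of cells with the most to those with no G2 and M phase UMI was 1.01 in injured MuSC 1 and 2.63 in primary myoblasts, and the ratio of cells with to without Myog 0.984 and 0.561.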
